A study of Mus musculus with 8 samples.

Results

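Keratinocytes of mouse back skin that carry the Mts24 surface antigen were compared with the keratinocytes left after that selection. Of the 8 expression arrays in the series, 4 hold this comparison: an Mts24 positive and an Mts24 negative fraction from wild-type mice, and the same fractions from K14Snail mice, in which the keratin 14 promoter drives Snail in basal keratinocytes. The other 4 arrays hold CD34 positive and CD34 negative fractions of the same 2 genotypes and serve here as the comparison. All mice were CD1, 8 weeks old, of both sexes, and each Mts24 array was made from 1 pool of 9 mice (11 for CD34). Skin was kept in trypsin overnight, the cells were labelled with the Mts24 antibody and a phycoerythrin-tagged second antibody, and labelled cells were pulled out with magnetic beads. RNA from each fraction was amplified, biotin-labelled and hybridised to an Affymetrix array, and the negative fractions are named as the controls.

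Each genotype and fraction has 1 array, so the genotypes act as the 2 pairs and no array has a replicate of its own. Whether a positive and a negative fraction came from the same mice is not stated. The p-values therefore measure only how far the 2 genotypes disagree over the fractions of both sorts. That spread may be technical or a real effect of genotype on a fraction, and the 2 cannot be told apart. Genes were taken as members when a probe set carried 1 gene symbol, which gave 19938 genes from 21789 of 28874 probe sets, and a gene with several probe sets was represented by the one with the highest mean. A gene was tested when it reached 7.70, the median of the gene table on the log2 scale, on at least 2 of the 8 arrays, which left 10720 genes. A level below is the deposited log2 value, and a difference is positive minus negative, averaged over both genotypes and given with its standard error from limma.

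Mts24 is the name of an antibody whose antigen is the product of Plet1, a membrane-anchored glycoprotein. In adult skin it labels keratinocytes of the upper hair follicle, in the isthmus between the bulge and the sebaceous gland. Such cells can form colonies in culture and repair epidermis in grafts. The bulge just below them holds slow-cycling stem cells marked by CD34, which the other sort of the series selects. Snail, encoded by Snai1, is a zinc-finger repressor best known for silencing E-cadherin when epithelial cells become motile.

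The sort separated the cells by its own antigen in both genotypes. Plet1 (probe set 10585186) had a level of 9.91 in the wild-type negative, 12.88 in the wild-type positive, 9.16 in the K14Snail negative and 12.64 in the K14Snail positive array. Both positive arrays lay above both negative ones, by 3.22 ± 0.22 (limma SE, 2 genotype pairs), and this is a check of the sort and not a result. Snai1 followed the genotype rather than the fraction, with levels of 7.86 and 8.16 in the wild-type negative and positive arrays and 10.84 and 11.00 in the K14Snail ones. Krt14, whose promoter drives the transgene and whose keratin marks basal keratinocytes, was between 13.28 and 13.72 on all 4 arrays.

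In limma with Benjamini-Hochberg adjustment over all tested genes, 2448 genes (22.8%) passed an adjusted p of 0.05, 1195 (11.1%) of them higher and 1253 (11.7%) lower in the Mts24 positive fractions. At a difference of at least 2-fold as well, 412 (3.84%) were higher and 353 (3.29%) lower. The median difference over all tested genes was 0.02. The number of calls moves with single arrays. Leaving out the wild-type negative, wild-type positive, K14Snail negative or K14Snail positive Mts24 array gave 808, 979, 661 and 987 calls, and sets of 4 counts given for a gene group below follow that order. Leaving out a CD34 negative array, which enters only through the shared spread, gave 1754 calls, and leaving out a CD34 positive array gave 2897. With the 4 Mts24 arrays alone it was 2861, of which 2252 were among the 2448. By direction, 8341 genes (77.8%) had the same sign in both genotypes, 4354 (40.6%) above 0 and 3987 (37.2%) below 0. Markers of other skin cells moved with the fractions, with T cell markers lower in the positive arrays of both genotypes and myeloid markers lower mainly in wild type, and their part in the results on keratinocyte genes was not tested.

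**Figure D1:**
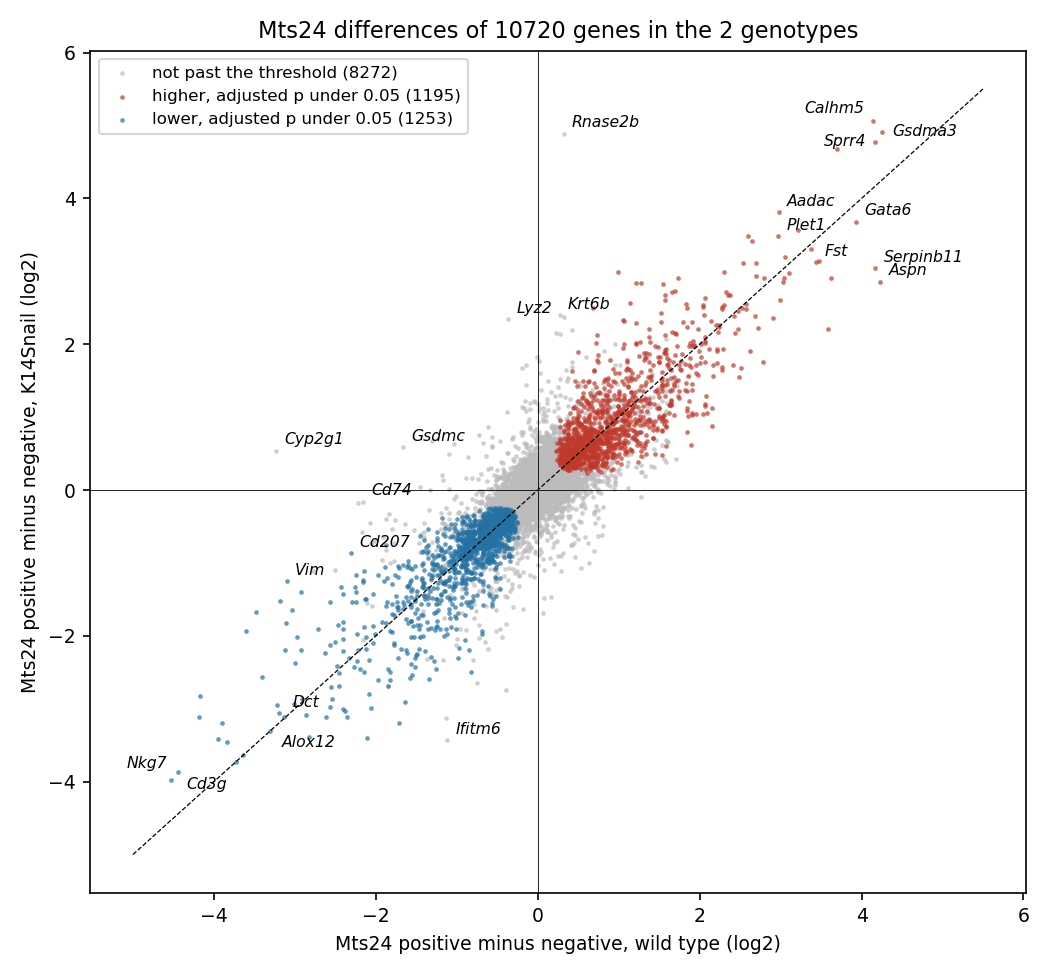
Mts24 positive minus negative difference (log2) of each tested gene in wild-type mice (horizontal axis) and K14Snail mice (vertical axis), 1 point a gene, with the 1195 higher calls in red, the 1253 lower calls in blue and a dashed line of equal differences. Calhm5, Gsdma3, Sprr4 and Gata6 lie high in both genotypes, Nkg7 and Cd3g lie low in both, and Rnase2b lies high in K14Snail alone (0.32 in wild type, 4.89 in K14Snail).

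The highest estimates were those of Calhm5, Gsdma3, Sprr4, Igfl3 and Gata6. Calhm5, which encodes a relative of the calcium homeostasis modulator channels (probe set 10368638), was at 6.73 in the wild-type negative, 10.86 in the wild-type positive, 6.24 in the K14Snail negative and 11.30 in the K14Snail positive array. Both positive arrays stood more than 4 log2 units above their negative partners, and the mean difference was 4.60 ± 0.33, a fitted 24.2-fold rise (limma adjusted p = 0.00177). Both its negative arrays were under the test floor, so its size is uncertain, and taken against the floor of 7.70 it was at least 10.4-fold. Gsdma3, a gasdermin of skin epithelium (probe set 10380956), had levels of 6.44 and 10.70 in wild type and of 6.78 and 11.69 in K14Snail. Its fitted rise was 23.9-fold, 4.58 ± 0.20 (limma adjusted p = 0.000579), and at least 11.3-fold against the floor, since both negative arrays were under it. Gsdma, another gasdermin gene whose sequence is closely related, was nearly level at 0.02 ± 0.27 (limma adjusted p = 0.964), although near-identical genes of this family can share probe signal. Sprr4, which encodes a small proline-rich protein of the cornified envelope (probe set 10499902), rose from 8.07 to 12.23 in wild type and from 8.25 to 13.03 in K14Snail. That is a 22.1-fold rise, 4.47 ± 0.43 (limma adjusted p = 0.00324). Igfl3, of the insulin growth factor-like family (probe set 10550482), had levels of 6.44 and 10.14 in wild type and of 7.86 and 12.54 in K14Snail. Its 18.3-fold rise had the widest spread of these genes, 4.19 ± 0.80 (limma adjusted p = 0.0192), and it did not pass without the wild-type positive or either K14Snail Mts24 array.

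Gata6, a zinc-finger transcription factor known from the sebaceous duct and upper follicle (probe set 10453857), was at 7.98 and 11.91 in wild type and at 8.10 and 11.77 in K14Snail. The positive arrays differed from each other by far less than from the negative ones, and the difference was 3.81 ± 0.25, or 14.0-fold (limma adjusted p = 0.00149). The rest of the 14 highest genes rose between 9.33-fold, for Plet1, and 12.2-fold, for the serine protease inhibitor gene Serpinb11. They included the integrin subunit gene Itgb8 (3.39), the calcium sensor gene Vsnl1 (3.34), the cytochrome P450 gene Cyp1b1 (3.31), the tight junction gene Cldn8 (3.27), the arylacetamide deacetylase gene Aadac (3.39) and Aspn, which encodes the matrix protein asporin (3.54). Fst, which encodes the activin antagonist follistatin, had levels of 8.52 and 11.96 in wild type and of 8.79 and 11.93 in K14Snail, a rise of 3.29 ± 0.13. Of the 1195 raised genes, 249 were under the test floor of 7.70 in both negative arrays, 7 of the 14 highest among them, so their fold changes and their order rest on dim negative values.

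The sequences before the sorted antigen gene and before 4 of the genes with the largest rises are shown, because genes that rise together are often searched for shared promoter letters. Each sequence is the 250 bases before the annotated start, from RefSeq on GRCm38.p6, read 5′ to 3′ on the strand of the gene. Capitals mark a match on either strand to the GATA motif (AGATAA or TGATAA), the E-box that Snail proteins bind (CAGGTG) or the TATA box (TATAAA). No 2 matches overlap.
Plet1, chr9:50494275-50494524, plus strand: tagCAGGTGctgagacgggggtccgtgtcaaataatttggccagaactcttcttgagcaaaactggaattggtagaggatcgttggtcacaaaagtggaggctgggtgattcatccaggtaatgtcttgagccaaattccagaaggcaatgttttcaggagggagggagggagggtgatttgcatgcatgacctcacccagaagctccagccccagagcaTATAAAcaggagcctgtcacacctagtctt
Calhm5, chr10:34096520-34096769, minus strand: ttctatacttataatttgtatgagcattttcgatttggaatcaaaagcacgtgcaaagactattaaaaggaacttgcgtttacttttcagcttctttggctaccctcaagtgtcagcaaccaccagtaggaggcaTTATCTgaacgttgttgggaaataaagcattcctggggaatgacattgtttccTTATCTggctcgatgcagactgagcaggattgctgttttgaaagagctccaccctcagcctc
Gsdma3, chr11:98626099-98626348, plus strand: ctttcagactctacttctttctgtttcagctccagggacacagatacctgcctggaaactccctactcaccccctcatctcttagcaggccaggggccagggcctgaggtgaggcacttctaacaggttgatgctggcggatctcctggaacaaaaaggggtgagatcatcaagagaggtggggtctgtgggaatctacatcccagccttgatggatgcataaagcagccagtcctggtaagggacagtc
Sprr4, chr3:92500494-92500743, minus strand: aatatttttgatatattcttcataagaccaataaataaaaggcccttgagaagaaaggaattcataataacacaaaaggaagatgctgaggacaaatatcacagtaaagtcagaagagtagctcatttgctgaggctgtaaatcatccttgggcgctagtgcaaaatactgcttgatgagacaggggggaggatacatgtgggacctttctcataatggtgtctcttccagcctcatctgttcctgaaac
Igfl3, chr7:18176244-18176493, plus strand: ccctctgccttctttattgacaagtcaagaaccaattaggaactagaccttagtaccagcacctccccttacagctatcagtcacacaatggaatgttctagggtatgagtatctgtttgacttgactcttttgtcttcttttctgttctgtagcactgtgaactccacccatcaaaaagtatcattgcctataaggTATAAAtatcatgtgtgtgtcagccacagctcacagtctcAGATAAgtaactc
The Plet1 window holds an E-box match that begins at -247 and a TATA match at -30, counted from the start. Calhm5 has GATA matches at -115 and -62, Igfl3 has a TATA match at -53 and a GATA match at -13, and Gsdma3 and Sprr4 have none of these letters. Windows on the chromosome of Gata6 were left out of the search, so Gata6 has none here. Of the 14 highest genes 11 had a window that was searched, and 2 of those held a GATA match.

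The shares over all windows searched give the background for these matches. A GATA match stood before 30 of 313 genes raised at least 2-fold (9.58%), 40 of 272 lowered at least 2-fold (14.7%) and 934 of all 8632 tested genes with a window (10.8%). An E-box match stood before 21.1% of the raised, 27.9% of the lowered and 18.4% of all genes, and a TATA match before 13.1%, 9.93% and 7.91%. A match is a run of letters and not a measured binding site.

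Markers of the upper follicle rose together. All 11 tested genes of the list passed in limma, none lower, with a median difference of 2.17 (1.84 in wild type, 2.36 in K14Snail) against 0.02 for all genes. Without each Mts24 array in turn, 10, 7, 8 and 8 of them passed. The list was chosen with earlier results of these data known, so its count describes these genes and is no independent support. Plet1, the sorted antigen gene, Gata6 and Sprr4 belong to it. The test floor can be reached through the positive arrays alone, so the count of tested genes favours genes that are high there. Lrig1, which encodes a membrane brake on EGF receptor signalling and marks stem cells of the junctional zone, was at 10.06 and 11.90 in wild type and at 9.55 and 12.05 in K14Snail, a difference of 2.17 ± 0.32. Defb6, a beta-defensin gene, rose from 10.93 to 13.83 and from 11.50 to 13.87, by 2.63 ± 0.20 (limma adjusted p = 0.00192). Krt79, the keratin of the infundibulum and sebaceous duct, was at 11.55 and 13.39 in wild type and at 11.42 and 13.67 in K14Snail, higher by 2.04 ± 0.39. Cst6, which encodes the protease inhibitor cystatin M/E, rose by 1.41 ± 0.12, Lgr6, the R-spondin receptor of isthmus stem cells, by 1.24 ± 0.28, Nebl by 1.11 ± 0.21 and Krt17 by 0.81 ± 0.08. In each of these genes both positive arrays were above both negative arrays.

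**Figure D2:**
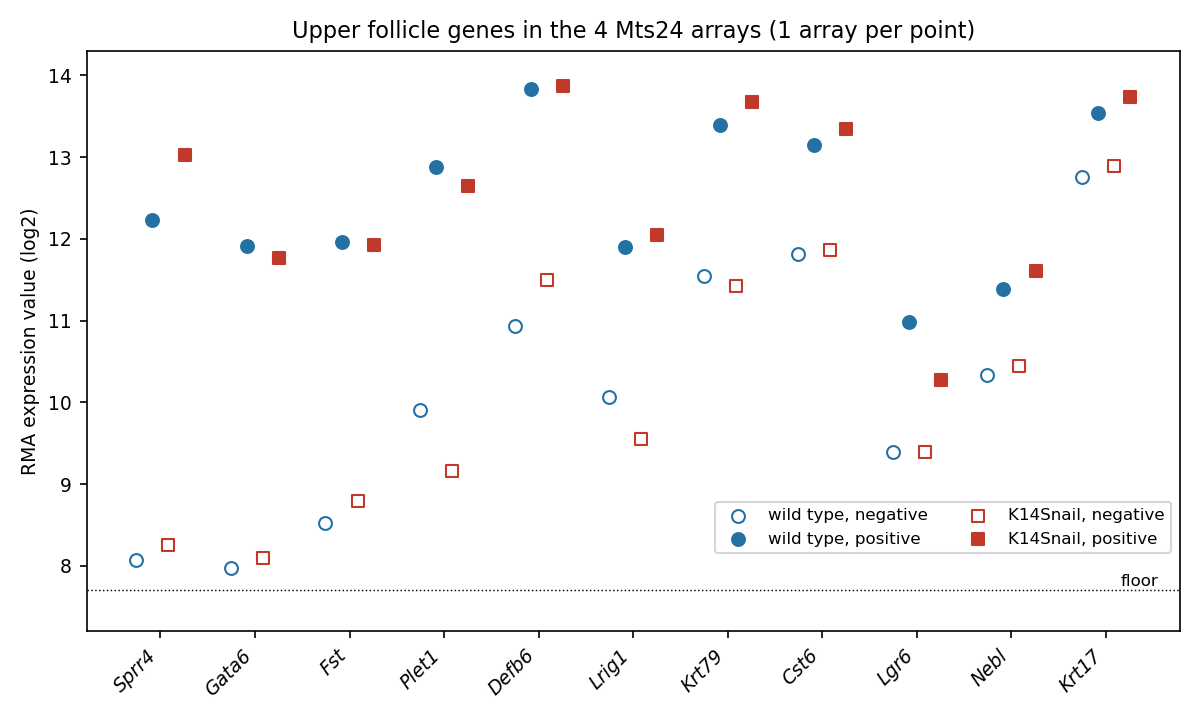
Levels (RMA log2 values) of 11 upper follicle genes on the 4 Mts24 arrays, 1 array a point, with circles for wild type, squares for K14Snail, open symbols for negative and filled symbols for positive fractions, and a dotted line at the test floor of 7.70. Sprr4 goes from 8.07 to 12.23 in wild type and from 8.25 to 13.03 in K14Snail, and each gene shown is higher in the positive fraction of both genotypes.

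Companion layer keratins were mostly higher, while the wider keratin and kallikrein lists went both ways. Of 5 tested companion layer keratins, 4 passed as higher, with a median of 1.59 that was 0.78 in wild type and 2.50 in K14Snail (4, 4, 2 and 2 passed without each array). Krt75, the companion layer keratin, was at 9.30 and 11.63 in wild type and at 8.31 and 11.03 in K14Snail, a rise of 2.52 ± 0.23. Krt6a rose by 3.04 ± 0.45 and Krt16 by 1.59 ± 0.39, while Krt6b, whose sequence is close to Krt6a, was higher by 0.27 in wild type and 2.40 in K14Snail and did not pass (limma adjusted p = 0.133). Over the 18 tested keratins, 7 were higher (5, 4, 2 and 2 without each array) and 1, Krt78, was lower (-2.74 ± 0.31, with -2.36 in wild type and -3.12 in K14Snail). This balance depends on the fit: with the Mts24 arrays alone 5 were higher and 5 lower, and without a CD34 positive array 6 and 5. Klk10, a secreted serine protease of the kallikrein family, went from 9.02 to 12.05 and from 9.54 to 12.40, a rise of 2.94 ± 0.22, and Klk6 and Klk12 also rose (1.76 and 0.71). The kallikrein and inhibitor list of 16 held 4 rises (3, 2, 2 and 2 without each array) and 1 fall, Serpinb12, but 11 of its genes were below 0 and its median was -0.41. With the Mts24 arrays alone it held 4 rises and 6 falls, and without a CD34 positive array 4 and 7. Among 7 antimicrobial and alarm protein genes 4 rose (2, 2, 1 and 1 without each array), Defb6, Defb1 (0.72), Stfa3 (1.69) and the peptidoglycan binding protein gene Pglyrp1 (0.51).

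**Figure D3:**
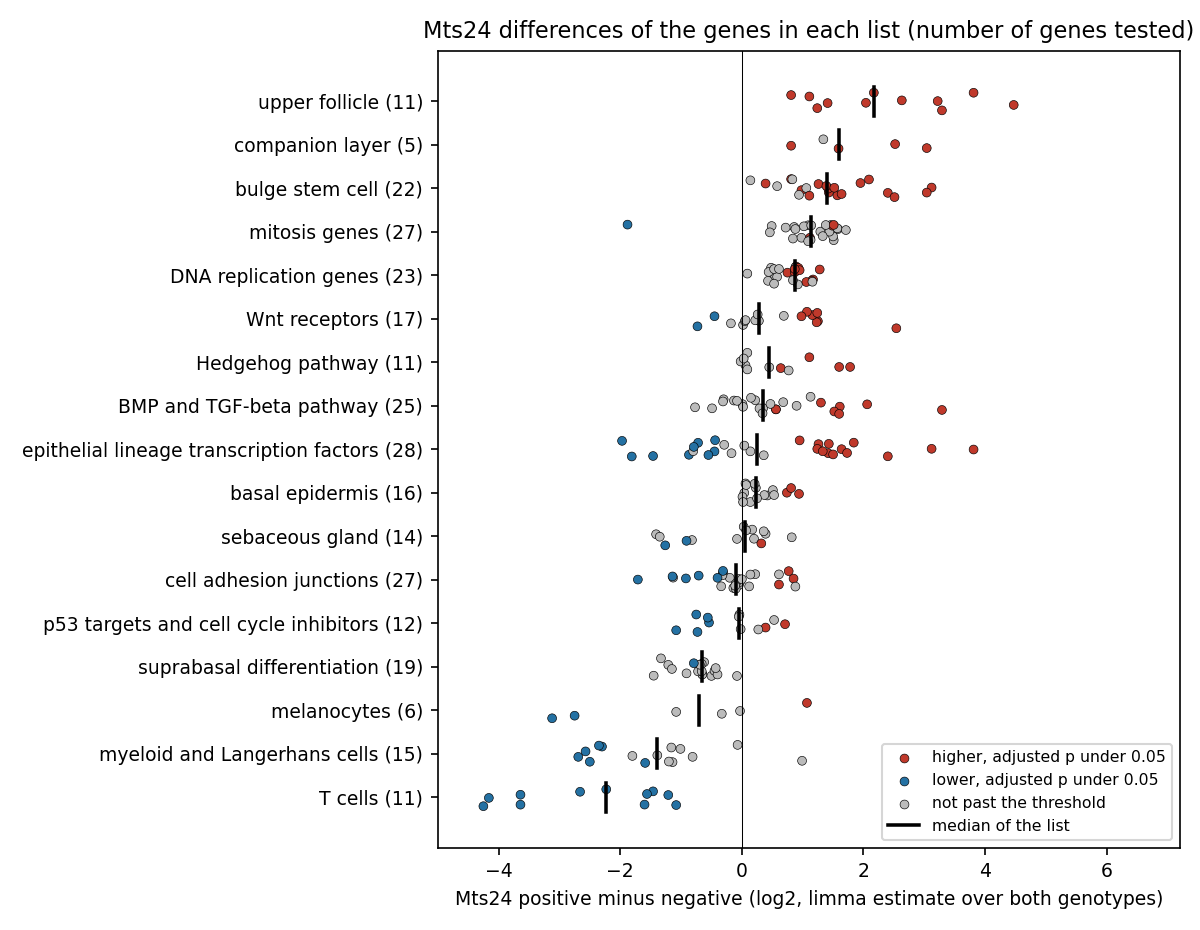
Mts24 difference (log2, limma estimate over both genotypes) of every tested gene in 17 of the gene lists, 1 row a list, with higher calls in red, lower calls in blue, genes that did not pass in grey and a bar at the list median. Upper follicle and bulge lists sit to the right (medians 2.17 and 1.41), the T cell list to the left (median -2.23), and most mitosis genes are grey although they lie above 0.

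Bulge genes were higher in the Mts24 positive fractions as well, but by less than after the CD34 sort. Of 22 tested bulge stem cell genes, 17 rose and none fell, with a median of 1.41 (9, 9, 13 and 14 without each array). After the CD34 sort, in which 12.1% of all genes were higher and 11.6% lower, the same 22 genes all passed as higher with a median of 2.76. Cd34 itself was at 10.03 and 12.12 in wild type and at 10.51 and 11.56 in K14Snail. Sox9, a transcription factor of follicle stem cells, had nearly the same difference in both sorts, 2.40 ± 0.09 for Mts24 and 2.38 for CD34. Foxc1, which holds bulge cells in quiescence, was at 7.37 and 10.43 in wild type and at 7.22 and 10.41 in K14Snail, a rise of 3.12 ± 0.09 that was larger than its 1.51 after the CD34 sort (limma adjusted p of the difference = 0.00716). Cd200, an immune-dampening membrane protein (3.04 ± 0.09), and Timp3, a metalloprotease inhibitor (2.51 ± 0.09), also rose more than in the CD34 sort. The bulge genes Lgr5, Lhx2, Tbx1 and Ccn2 were among the 11 of the list that differed less in the Mts24 sort, with differences of 0.98, 1.64, 1.26 and 1.95 against 5.33, 4.70, 4.25 and 4.12. The Mts24 call of Lgr5 was lost in 9 of 17 alternative fits.

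Tested directly, the enrichment in the Mts24 sort differed from that in the CD34 sort for 437 genes (4.08%), 182 (1.7%) with a higher and 255 (2.38%) with a lower value in the Mts24 sort. This count rests on few arrays: it was 14 without the wild-type CD34 negative array, 32 without the K14Snail CD34 negative one and 830 without the K14Snail CD34 positive one, and between 57 and 146 without any 1 Mts24 array. Of the 2448 genes called for Mts24, 1369 were called in the same direction for CD34, which is 55.9% of the Mts24 and 53.9% of the CD34 calls, and 41 were called in opposite directions. Sprr4 had the largest excess, 5.91 ± 0.61, with 4.47 for Mts24 and -1.44 for CD34. Gata6 (3.44), Aadac (3.37), Klk10 (3.20), the organic anion transporter gene Slco2b1 (3.17), the transcription factor gene Sox7 (2.91), Mab21l4 (2.90) and Calhm5 (2.85) followed. The largest deficits were those of Cd34 (-5.66), the interleukin 31 receptor gene Il31ra (-4.42), Lgr5 (-4.36) and Angptl7 (-4.19). Leaving out arrays ended many of these calls: of 16 alternatives, 7 did so for Aadac and Calhm5, 5 for Sprr4, Slco2b1 and Mab21l4, 4 for Sox7, 3 for Gata6 and 1 for Klk10. For Aadac, Calhm5 and Mab21l4 these included the pool as a fixed block. Among the 6 upper follicle genes with a larger value in the Mts24 sort were Defb6 and Cst6, at 0.01 and -0.18 after the CD34 sort.

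**Figure D4:**
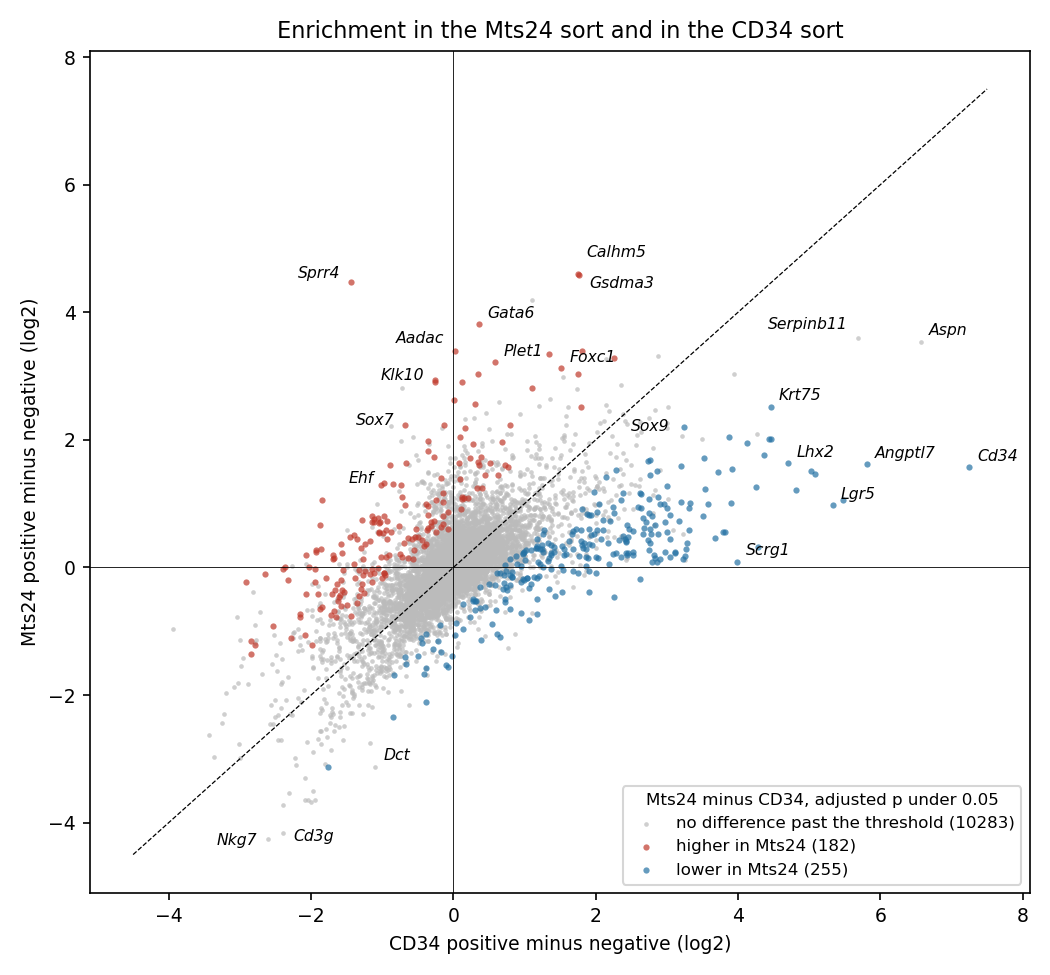
Difference (log2, positive minus negative, over both genotypes) of each tested gene in the CD34 sort (horizontal axis) and in the Mts24 sort (vertical axis), with red for the 182 genes higher and blue for the 255 genes lower in the Mts24 sort and a dashed line of equal differences. Sprr4 and Gata6 stand high on the Mts24 axis with CD34 values of -1.44 and 0.36, and Cd34 and Lgr5 stand far to the right with Mts24 values of 1.57 and 0.98.

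Transcription factors of epithelial lineages went in both directions. Of 28 tested, 13 were higher and 9 lower. The higher calls changed little without single arrays (11, 10, 13 and 12), and the lower ones were mostly lost (1, 0, 1 and 3). Beside Gata6, Foxc1 and Sox9, the raised factors included Lhx2 (1.64), Runx1 (1.84), the vitamin D receptor gene Vdr (1.50), Nfatc1 (1.43), Tcf7l1 (1.42) and Barx2 (1.24). The related ETS factor genes Elf5 and Ehf rose by 1.73 ± 0.21 and 1.33 ± 0.09, while after the CD34 sort they were at -0.27 and -0.97, a difference between sorts of 2.00 and 2.31 (limma adjusted p = 0.0264 and 0.00454). The lowered factors included Satb1 (-1.97), a chromatin organiser, Runx3 (-1.81), Foxn1 (-1.46), the factor behind the nude hair defect, and Gata3 (-0.87). Satb1 and Runx3 are also known from T cells, whose markers fell in the same arrays, and the part of those cells in these values was not tested. Among genes chosen after their values were seen, Sox7 rose by 2.23 ± 0.19, from 8.75 to 10.95 and from 8.93 to 11.19. The Iroquois factor genes Irx4 (2.86), Irx1 (1.71), Irx2 (0.66) and Irx3 (0.38) rose as well, and Irx5 was at 0.27 (limma adjusted p = 0.077).

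Most genes of DNA replication and mitosis had higher levels in the positive fractions of both genotypes. Of 23 tested DNA replication genes 10 were called higher and none lower (median 0.87), and 22 were above 0 in both genotypes. Over all genes 11.1% were called higher, 11.7% were called lower and 40.6% were above 0 in both genotypes. Mcm5, a subunit of the replicative helicase, was at 8.82 and 10.15 in wild type and at 9.33 and 10.56 in K14Snail, a rise of 1.28 ± 0.30, and Mcm2 rose by 1.17 ± 0.27. Pcna, the sliding clamp of the polymerase, was higher by 0.48 in wild type and 0.49 in K14Snail and did not pass (limma adjusted p = 0.0893). Of 27 mitosis genes, 3 were called higher, Aurkb (1.49), Mad2l1 (1.51) and Ube2c (1.12), and 1 lower, so most did not pass. These mitosis counts are near or below the shares over all genes. The median was 1.14 and 26 genes were above 0 in both genotypes, Mki67 among them with 1.59 and 1.36. The exception was Ttk, which encodes a spindle checkpoint kinase, at 9.61 and 7.80 in wild type and 9.72 and 7.77 in K14Snail, a difference of -1.88 ± 0.12 against the direction of the list.

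The calls on these cell cycle lists turn on the spread lent by the CD34 arrays. In the CD34 sort the 23 replication genes had a median of -0.67 in wild type and 0.30 in K14Snail, and the mitosis genes had 27 of 27 below 0 in wild type and 26 above 0 in K14Snail, so the genotypes went in opposite directions there. With the 4 Mts24 arrays alone, 22 of 23 replication and 26 of 27 mitosis genes were called higher. Without any 1 Mts24 array no gene of either list was called higher, and without a CD34 negative array 6 and 0 were.

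Among the signalling lists, the Wnt receptors held more rises than falls. Of 17 tested Wnt receptor genes, 7 were higher and 2 lower (4, 4, 6 and 5 higher without each array). Fzd7, a frizzled receptor, was at 9.35 and 12.04 in wild type and at 9.68 and 12.08 in K14Snail, a rise of 2.54 ± 0.11, and Fzd1 (1.25), Fzd2 (1.23), Fzd3 (1.16), Lgr4 (1.07), Lgr5 (0.98) and Lgr6 (1.24) rose too. Fzd10 (-0.73) and the co-receptor gene Lrp5 (-0.45) fell (0, 1, 0 and 0 falls without each array). After the CD34 sort, in which 12.1% of all genes were higher and 11.6% lower, 8 Wnt receptor genes rose and 1 fell. Their median was 0.65 there against 0.28 for Mts24, and 4 had a lower and 1 a higher value in the Mts24 sort past the threshold. In the Mts24 sort Wnt10a and Wnt11 of 12 Wnt ligand genes rose (0.65 and 0.80), and Wnt3, Wnt5a and Wnt7b fell (-1.42, -1.02 and -1.09). The 2 rises were down to 1, 1, 0 and 0 and the 3 falls to 3, 1, 0 and 1 without each array. Of 10 Wnt inhibitor genes, Sostdc1, a secreted antagonist of both Wnt and BMP signals, rose from 10.99 to 13.04 and from 10.59 to 13.00, by 2.23 ± 0.18, and Kremen1 fell (-0.39), a call lost without any 1 Mts24 array. These counts of 1 and 1 are near the shares over all genes, 11.1% higher and 11.7% lower, and so are the 2 ligand rises. With the Mts24 arrays alone the inhibitor list held 4 rises and 1 fall. None of the 5 tested Wnt target genes passed in limma in the main fit.

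In the Hedgehog list of 11 genes, the co-receptor genes Boc (1.78) and Gas1 (1.11), the signal transducer gene Smo (0.64) and the effector gene Gli3 (1.60) rose and none fell (3, 3, 4 and 4 without each array). Of 25 BMP and TGF-beta pathway genes, 7 rose and none fell (4, 4, 4 and 6 without each array). They were the ligand genes Bmp6 (1.30), Bmp7 (1.61), Tgfb1 (0.56), Tgfb2 (2.06) and Inhbb (1.60) and the antagonist genes Grem1 (1.52) and Fst. Both lists rose more after the CD34 sort. There 8 Hedgehog genes rose and none fell, and 16 BMP and TGF-beta genes rose and 2 fell. Their medians were 1.30 and 1.18, against 0.45 and 0.35 for Mts24. Past the threshold, 2 Hedgehog and 5 BMP and TGF-beta genes had a lower value in the Mts24 sort, and 0 and 2 a higher one. In the Notch list of 16, the ligand gene Jag2 (0.87), the target gene Hey1 (1.06), the receptor-modifying gene Lfng (1.32) and the co-activator gene Maml2 (0.69) rose in the Mts24 sort, and the receptor gene Notch3 fell (-0.57). Without each array 2, 2, 4 and 4 of the Notch rises passed and Notch3 did not. Of 12 EGF receptor family genes, Lrig1 rose and the ligand gene Ereg fell (-1.48 ± 0.30), a fall that did not pass without any 1 Mts24 array. The EGF receptor family counts of 1 rise and 1 fall are near the shares over all genes, 11.1% higher and 11.7% lower. Of 14 tested retinoid metabolism genes 2 rose and 3 fell, with a median of -0.07, counts not far from those shares. Stra6, the cell-surface receptor for retinol delivery, was at 7.51 and 10.04 in wild type and at 7.82 and 10.94 in K14Snail. Its rise was 2.82 ± 0.47. Adh7 rose (1.66), both calls being lost without the wild-type positive or either K14Snail Mts24 array, and the dehydrogenase genes Adh1 (-2.53), Dhrs9 (-2.15) and Dhrs3 (-0.44) fell, and these 3 falls did not pass without any 1 Mts24 array.

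Of 19 tested suprabasal genes only the transcription factor gene Grhl3 fell in the main fit (-0.79 ± 0.14), but 18 were below 0 in both genotypes. Over all genes 37.2% were below 0 in both. The list median was -0.66. Krt1, the keratin of the spinous layer, was at 13.77 and 12.33 in wild type and at 13.77 and 12.55 in K14Snail (difference -1.33 ± 0.44, limma adjusted p = 0.0848). With the 4 Mts24 arrays alone, 13 of the 19 were called lower, and without a CD34 positive array 14. Of 16 basal genes the adhesion genes Itgb1 (0.74), Lamb3 (0.81) and Lama5 (0.94) rose and none fell (0, 1, 1 and 2 without each array). Of 14 sebaceous genes, Krt7 rose (0.32), and the lipid synthesis genes Fasn (-0.91) and Dgat2 (-1.26) fell (1 of these falls passed in each fit without 1 Mts24 array). The Krt7 call was lost without 3 of the 4 Mts24 arrays, without any CD34 array and with the pool as a fixed block, and with the Mts24 arrays alone 5 genes of the list were lower. The sebaceous counts of the main fit, 1 rise and 2 falls of 14, are near the shares over all genes, 11.1% higher and 11.7% lower. Of 27 junction genes 3 rose, also near that share, Cdh3 (0.85), Dsg3 (0.61) and Epcam (0.77). Another 6 fell, with the connexin gene Gjb5 at -1.71 ± 0.23 and the tight junction genes Tjp3 and Cgn at -1.14 and -0.92. Without each array the junction falls numbered 3, 2, 1 and 0 and the rises 1 each. Of 12 p53 target and inhibitor genes, Cdkn1b and Sesn1 rose (0.39 and 0.71) and Cdkn2b, Mdm2, Pmaip1, Sesn2 and Zmat3 fell (-1.08 to -0.54), with 0, 2, 0 and 4 falls and 1 rise left without each array.

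The interferon-induced chemokine genes Cxcl10 and Cxcl9 rose by 1.98 ± 0.22 and 2.06 ± 0.36, Cxcl10 from 7.25 to 8.77 in wild type and from 7.44 to 9.87 in K14Snail. Of the 11 tested interferon response genes, 3 rose (2, 3, 1 and 3 without each array) and Usp18 fell (-0.78). Among genes chosen after their values were seen, Ccl2, a chemokine that draws monocytes, was at 6.99 and 9.64 in wild type and at 7.81 and 11.21 in K14Snail, a rise of 3.03 ± 0.34. Ccl7 (2.19), Cxcl12 (2.07) and Ccl20 (1.20) rose as well. Of 16 immediate early genes, which answer stimuli rapidly, Egr2 rose from 10.20 to 12.12 and from 10.37 to 12.42, by 1.99 ± 0.18, Ier3 rose (1.54) and Egr3 fell (-0.58). These counts of 2 rises and 1 fall are near or below the shares over all genes, 11.1% higher and 11.7% lower.

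Genes of T cells and related lymphocytes were prominent among the largest falls, and 4 of the 14 lowest genes belong to the T cell list. Nkg7, a granule protein gene of cytotoxic lymphocytes (probe set 10552406), was at 11.20 in the wild-type negative, 6.67 in the wild-type positive, 10.64 in the K14Snail negative and 6.65 in the K14Snail positive array. Both positive arrays were below the test floor, and the fitted fall was 19.1-fold (-4.25 ± 0.28, limma adjusted p = 0.00149), or at least 9.32-fold against the floor. The same holds for both positive arrays of 10 of the 14 lowest genes, so their folds are estimates from dim values. Cd3g, a subunit of the T cell receptor complex, fell by 4.44 (log2) in wild type and from 11.47 to 7.60 in K14Snail, or a fitted 17.8-fold, and Cd3e and Cd7 each fell 12.5-fold. All 11 tested T cell genes fell, with a median of -2.23 (10, 11, 10 and 10 without each array). The fall was not particular to this sort. After the CD34 sort, in which 11.6% of all genes were lower, 10 of the same 11 genes passed as lower, with a median of -1.84. Of the 14 lowest genes, 13 did not differ between the 2 sorts past the threshold. In bulk RNA, fewer cells of a type and less RNA per cell cannot be told apart. The summed level of the 14 T cell markers on the array, as log2, was 14.36 and 11.44 in wild type and 13.90 and 11.23 in K14Snail, and 12, 5, 11 and 2 of the 14 reached the test floor on those arrays. The 14 largest falls also included the receptor genes Kir3dl2 and Kir3dl1 (-3.73 and -3.08), which are near-identical and can share signal, Trgv1 of the gamma T cell receptor (-3.65), the granule proteoglycan gene Srgn (-3.50), the T cell adaptor gene Trat1 (-3.54), the lymphocyte receptor gene Cd96 (-3.13) and F830045P16Rik (-3.68). The remaining genes were Alox12, a skin barrier lipoxygenase (-3.30), the protease inhibitor gene Serpinb12 (-3.10) and the melanin synthesis gene Dct (-3.12).

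Myeloid and Langerhans cell genes were lower too, more so in wild type. Of 15 tested, 6 fell (Cd207, Ptprc, Adgre1, Fcer1g, Laptm5 and Cd53) and none rose, with a median of -2.22 in wild type and -0.72 in K14Snail. Without each array 1, 1, 2 and 3 passed. The CD34 sort showed the same order of the genotypes. There the list had a median of -2.13 in wild type, with all 15 genes below 0, and of -0.11 in K14Snail, with 5 above 0. On the Mts24 arrays Cd74, the invariant chain of MHC class II, was at 12.37 and 10.21 in wild type but at 12.31 and 12.15 in K14Snail. The summed level of the 17 myeloid markers was 14.12 and 11.97 in wild type and 14.01 and 13.54 in K14Snail, and 14, 4, 14 and 11 of them reached the floor. Of 6 tested melanocyte genes, Dct and Tyrp1 fell (-3.12 and -2.75) and Mitf, a transcription factor gene of that lineage, rose by 1.07 and was at 2.75 after the CD34 sort. None of the 11 endothelial genes on the array reached the test floor on 2 arrays. Of the fibroblast markers Thy1, also a lymphocyte marker, fell (-1.21), and Fbln2 was called higher (0.48) in the main model but not without any 1 Mts24 array or with the Mts24 arrays alone. Mbp of Schwann cells fell (-0.97).

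**Figure D5:**
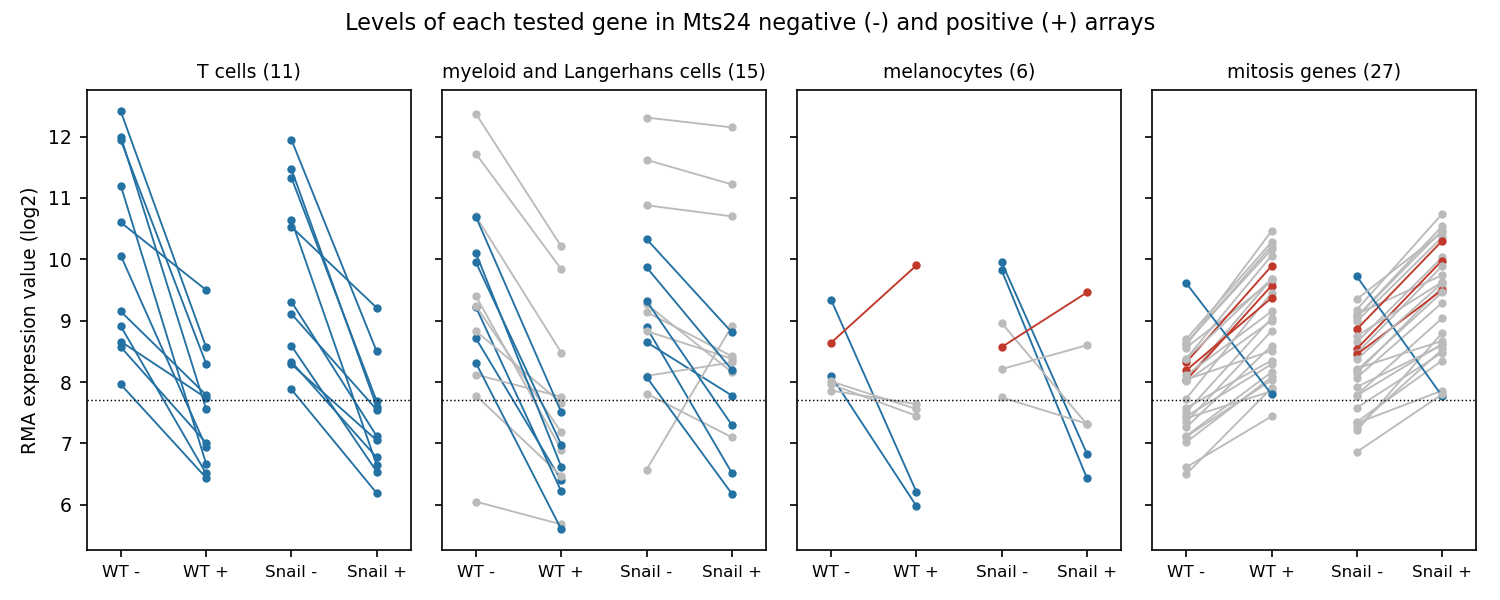
Levels (RMA log2 values) of each tested T cell, myeloid and Langerhans cell, melanocyte and mitosis gene on the 4 Mts24 arrays, with a line from the negative to the positive fraction of a genotype, blue for lower calls, red for higher calls, grey for genes that did not pass and a dotted line at the floor of 7.70. All 11 T cell genes go down in both genotypes, myeloid genes go down more in wild type than in K14Snail (medians -2.22 and -0.72), and 26 of 27 mitosis genes go up in both, Ttk being the blue line.

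Few genes of epithelial to mesenchymal transition passed, and they went both ways. Of 13 tested, 3 rose (0, 1, 1 and 1 without each array) and 2 fell (none without any 1 Mts24 array). Beside 11.1% higher and 11.7% lower over all genes, such small counts are no result about the list. Snai2, the Snail relative that is expressed in skin, was at 9.96 and 11.18 in wild type and at 7.11 and 9.95 in K14Snail, so the rise of 2.03 ± 0.54 was 1.21 in wild type and 2.84 in K14Snail (limma adjusted p = 0.0466). Cdh3 (0.85) and the matrix protein gene Tnc (1.39) rose. Cdh1, the E-cadherin gene, lay between 12.58 and 12.66 on all 4 arrays, with a difference of -0.05 ± 0.08. Vim, the mesenchymal filament gene that lymphocytes and Langerhans cells also express, fell by 2.18 (log2), with -3.10 in wild type and -1.25 in K14Snail, and Mmp9 fell by 1.89.

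The genotypes could be set side by side but not tested, since each has 1 array a fraction. Within wild type 916 genes (8.54%) differed by at least 2-fold between the fractions, 490 (4.57%) higher and 426 (3.97%) lower in the positive one. Within K14Snail 1000 (9.33%) did, 532 (4.96%) higher and 468 (4.37%) lower. The K14Snail difference exceeded the wild-type one by at least 1 on the log2 scale for 123 genes (1.15%) and fell short by that much for 95 (0.886%). Rnase2b, a ribonuclease gene of the eosinophil family, stood apart, at 6.40 and 6.72 in wild type but at 5.01 and 9.90 in K14Snail. Lcn2, an iron-binding alarm protein gene, was higher by 0.32 in wild type and 2.37 in K14Snail, and Krt6b, a wound keratin gene, by 0.27 and 2.40. The antigen presentation gene H2-Ab1 differed by -2.22 in wild type and by -0.18 in K14Snail. In the other direction, Scgb1a1, a secretoglobin gene, was at 10.13 and 9.73 in wild type and at 10.07 and 7.34 in K14Snail, and Serpina12 differed by -0.75 and -2.65. F3, the tissue factor gene, had differences of -0.83 and -2.50.

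Chromosomal neighbours of the leading genes, within 2 genes on each side, were called in both directions, beside 11.1% higher and 11.7% lower over all genes. Among 27 tested neighbours of the 14 highest genes, 7 were higher, 4 lower and 16 did not pass. Next to Aadac, which rose, the related gene Aadacl2 fell from 11.58 to 9.10 and from 11.52 to 9.10. Among 33 tested neighbours of the 14 lowest genes, 11 were lower, 5 higher and 17 did not pass, and Cd3d and Cd3e fell beside Cd3g. The 11 include Cd3e, Cd3g, Kir3dl1 and Kir3dl2, which are themselves among the 14 lowest genes. Their calls were fixed by that choice, so the count of 11 cannot be read against the share over all genes.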

How the data were processed

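The authors deposited log2 expression values, normalized together by RMA per the submitters' processing notes. The RMA version and the genome build of the array are not given in the sources used here. Values ran from 3.04 to 14.49 and array medians from 7.32 to 7.42. Probe sets were named from GEO's platform annotation: 21789 carried 1 symbol, 1621 several and 5464 none, and only the first kind was used. Close paralogues such as Kir3dl1 and Kir3dl2 or Krt6a and Krt6b can share probe signal.

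Differences were tested on the log2 scale with limma 3.58.1 in R 4.3.3 on all 8 arrays, with the 4 fractions and genotype as fixed terms and the pool (genotype and marker) as a random block (correlation -0.175, 3 residual degrees of freedom). Pool as a block means only the 2 fractions of a genotype and marker, and whether these came from the same mice is not stated. P-values were adjusted by Benjamini-Hochberg over 10720 genes at 0.05. Fits without 1 array kept this correlation. The script was tested on simulated data, where it recovered 72 of 100 genes changed 2-fold and 96 of 100 changed 4-fold, with 4 false calls. The simulated noise was independent between arrays, without a genotype effect or a pool correlation, and far fewer genes changed than were called here. These figures check the script and do not give the error rate of the reported calls. Gene lists are described by counts and medians, with no set test. The members and lists were chosen with earlier results of these data known. Named genes were the 14 highest and 14 lowest called with the same sign in both genotypes, the 8 highest and 8 lowest of the comparison between sorts and of that between genotypes, and called or leading list members. Others are said to be chosen after their values were seen, and the promoter motifs were chosen in the same way. Promoter windows were from RefSeq tables, with the chromosome of Gata6 left out, and 8632 tested genes had one that was searched. Alternatives were other normalizations, floors, probe set rules and blocks, and leaving out each array. The number of arrays limits the precision.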

Additional observations from a re-analysis of the deposited data

Results flagged for a closer look

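Among the genes of the lists and leading ranks, 12 had an Mts24 difference of opposite sign in wild type and K14Snail, at least 0.05 from 0 in each and at least 1 apart on the log2 scale, with 1 array a group. The median of 1 list also changed sign. Over all 10720 tested genes, 8341 had the same sign, so opposite signs are common among small differences. These differences between genotypes were not tested. Genes were also examined for a high or low rank in this difference, Cyp2g1, Lyz2, Gsdmc, Pyy, Npr3 and Lce1c among them. The count of 12 is therefore partly fixed by that choice and cannot be read as a share. Over all 10720 genes, 218 (2.03%) were at least 1 apart, whatever their signs. How many of those also had opposite signs was not counted. K14Snail minus wild type was 3.76 for Cyp2g1 (-3.23 in wild type, 0.54 in K14Snail), 2.70 for Lyz2, the myeloid lysozyme gene (-0.37, 2.34), and 2.26 for the gasdermin gene Gsdmc (-1.67, 0.59). It was 1.58 for Sfrp2, a Wnt inhibitor gene (-0.14, 1.44), 1.47 for the connexin gene Gjb2 (-0.61, 0.86) and 1.01 for the inner root sheath keratin gene Krt25 (-0.21, 0.80). In the other direction it was -1.74 for the peptide YY gene Pyy (0.06, -1.68), -1.63 for the cornified envelope gene Lce1c (0.63 in wild type, below 0 in K14Snail) and -1.63 for the natriuretic peptide receptor gene Npr3 (0.16, -1.47). It was -1.36 for the keratin gene Krt24 (1.27, -0.09), -1.30 for the matrix protease gene Mmp2 (0.81, -0.49) and -1.22 for the kallikrein gene Klk9 (0.20, -1.02). The median of the sebaceous list was -0.30 in wild type and 0.33 in K14Snail, 0.64 apart.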

How the results depend on the processing

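The Mts24 calls depend on single arrays: leaving out 1 array gave 661 to 2897 calls, 382 to 1435 higher and 279 to 1462 lower, while the other alternatives stayed within 1.5 times the count. For the difference between sorts, leaving out 1 array gave 14 to 830 calls (4 to 443 higher, 10 to 387 lower), the pool as a fixed block gave 232 (93 and 139), and a floor on the Mts24 arrays alone gave 169 lower. Without 1 array list medians ran from 1.72 to 2.52 (upper follicle), -0.99 to 0.75 (sebaceous), -0.95 to -0.37 (suprabasal), 0.22 to 0.35 (keratins), 0.10 to 0.44 (lineage factors), 0.74 to 0.91 (replication), 0.99 to 1.42 (mitosis), 0.28 to 0.47 (Wnt receptors), 0.12 to 0.50 (Wnt inhibitors), -0.07 to 0.10 (Notch), -0.06 to 0.04 (EGF receptor), -0.58 to -0.17 (kallikreins), -0.12 to 0.25 (immediate early) and -0.09 to -0.05 (p53). With no filter the medians were 0.14 (keratins), 0.01 (Wnt inhibitors), 0.09 (Hedgehog) and -1.58 (T cells). With the floor on Mts24 arrays they were 0.14 (lineage factors), 1.22 (mitosis), 0.69 (Wnt receptors) and 0.20 (Wnt inhibitors). Quantile normalization gave 1.09 (mitosis), 0.01 (immediate early) and -0.08 (p53), and median centring 1.10, 0.02 and -0.09 with -0.01 (EGF receptor) and -1.96 (T cells).

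For 6 of the genes examined the sign of the Mts24 difference turned in a fit without 1 Mts24 array, and none of the 6 passed with all arrays. Without single arrays the range was -3.75 to 1.06 for Cyp2g1, -1.50 to 0.42 for Gsdmc, -2.01 to 0.38 for Pyy, -1.34 to 0.03 for Npr3, -1.04 to 0.67 for Lce1c and -0.24 to 0.42 for Scrg1. Of these, Cyp2g1, Gsdmc, Pyy, Npr3 and Lce1c are also flagged above for opposite signs in the 2 genotypes. A fit without 1 Mts24 array leaves 1 genotype without its pair. The cause of each turn was not tested. Pairing the 2 fractions of each genotype and marker, as a fixed block, gave 2221 Mts24 calls. Among the 14 highest and 14 lowest genes, the call was lost in 3 of 17 alternatives for Igfl3, 2 for Serpinb11, 4 for F830045P16Rik, 1 for Alox12 and 4 for Serpinb12, each time in fits without 1 Mts24 array. With 1 array a group, dim genes near the floor have the least certain differences, and differences between genotypes have no test.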
